A study of Chlamydomonas reinhardtii with 42 samples.

Results

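The 100 genes described here are genes of the green alga *Chlamydomonas reinhardtii* whose transcript levels were low 15 min after acetate had been added to cells in low light and less low, or no longer low, at the later time points. They are the 100 of 13886 genes with the lowest value of a score calculated from the same libraries, so they were chosen by their measured acetate differences in low light, and their early drop and recovery are given as a description without a test. For each gene, A(t) was the mean log2 CPM with acetate minus the mean without it in low light at time t, where CPM is the count per 1000000 reads after TMM scaling (trimmed mean of M values), and the score was the highest of A(15), A(15) minus A(240) and A(15) minus A(1440). A gene therefore needed both a low A(15) and a less negative difference at both later times.

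Cells of the wild-type strain CC-125 came from Tris-acetate-phosphate medium and were kept in Sueoka's high salt medium (HSM), which offers no organic carbon, in low light (LL), a photon flux of 5 µmol per m2 and s. At time 0 part of the culture received 20 mM acetate and the rest stayed in HSM, and both were sampled in LL after 15, 240 and 1440 min. At 240 min (day 1) and 1440 min (day 2) portions of both cultures were moved to high light (HL, 300 µmol per m2 and s) and sampled after 15 and 60 min, that is at 255, 300, 1455 and 1500 min. The 14 conditions had 3 libraries each, 42 in all, of which 18 were from LL and 24 from HL. The methods of the study call the libraries of a condition biological replicates, while the labels do not say whether they came from separate flasks. All libraries were of one strain in liquid batch culture, with no mutant and no other carbon source.

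Acetate is taken up by *Chlamydomonas*, converted to acetyl-CoA and used through the glyoxylate cycle, gluconeogenesis and respiration, so that cells in the light grow mixotrophically. Acetate is known to lower transcripts of the carbon concentrating mechanism (CCM), which raises CO2 around Rubisco, in this alga. High light is known to raise transcripts of photoprotective light-harvesting proteins, which help to release excess excitation as heat.

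The libraries held between 19232757 and 34098899 counted reads, with a median of 25197659, and their TMM factors ran from 0.454 to 1.57. Between 36.7% and 76.4% of a library's reads fell on its 100 most abundant genes, and the highest of these shares belonged to HSM LL 1440 min replicate 2, which also had the lowest TMM factor. Leaving that library out of the selection left 98 of the 100 members in place. At 15 min the acetate libraries had TMM factors of 0.655 to 0.708 and the HSM libraries of 0.669 to 0.746. The share of the 100 most abundant genes was 58.4% to 61.4% with acetate and 68.8% to 70.2% in HSM, and whether this difference in composition had a part in the low values of the members was not tested.

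The sources used here give a family or function for few of the 100 genes. None was among the 71 CCM genes (0.511% of all genes tested) or the 55 photoprotection genes (0.396%) that could be tested. With such small shares a count of 0 among 100 genes says little. Of the CCM genes 19 (26.8%) had an A(15) of -2 or lower, beside 9.07% of all genes and 9.09% of the photoprotection genes. The median A(240) of the CCM genes was -0.75, against 0.03 for all genes, and the rule leaves out genes that stay low. Of the members, 3 were among the 371 tested transcription factors and chromatin regulators (2.67% of all genes tested), of which 6.47% had an A(15) of -2 or lower. The 3 were Cre03.g164650 of the SET family, whose members include histone lysine methyltransferases, Cre03.g144424 of the AP2 family of DNA-binding proteins, and Cre01.g008200 of the C3H zinc finger family. For the other members the sources used here pair the locus identifier with no name, and they are therefore given by identifier.

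In LL without acetate the members were nearly level, and with acetate all were low at 15 min by the rule that chose them. Their summed level was 409 ± 20.7 CPM in HSM and 36.8 ± 1.88 CPM with acetate at 15 min (mean ± SD, n = 3). At 240 min the sums were 388 ± 36.9 CPM in HSM and 378 ± 32.0 CPM with acetate, and at 1440 min 477 ± 46.3 and 747 ± 65.8 CPM. In raw reads, the 100 genes together held 7886, 9939 and 6592 counts in the 3 HSM libraries at 15 min and 626, 628 and 767 in the 3 acetate libraries. Because RNA was taken from whole cultures, a lower level in every cell and the loss of the transcript from part of the cells cannot be told apart, nor can CPM show a change in total RNA per cell.

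The median CPM over the members was 2.83, 3.1 and 2.94 in the HSM libraries at 15 min and 0.236, 0.222 and 0.252 in the acetate libraries. At 240 min it was 2.95, 2.71 and 2.70 in HSM and 2.4, 2.37 and 2.44 with acetate, and at 1440 min 2.72, 2.35 and 2.80 in HSM and 3.2, 3.44 and 3.51 with acetate. The lowest of the HSM values at 1440 min belonged to the library with the lowest TMM factor. The plot of the medians shows that no other condition came near the 15 min acetate libraries.

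**Figure D1:**
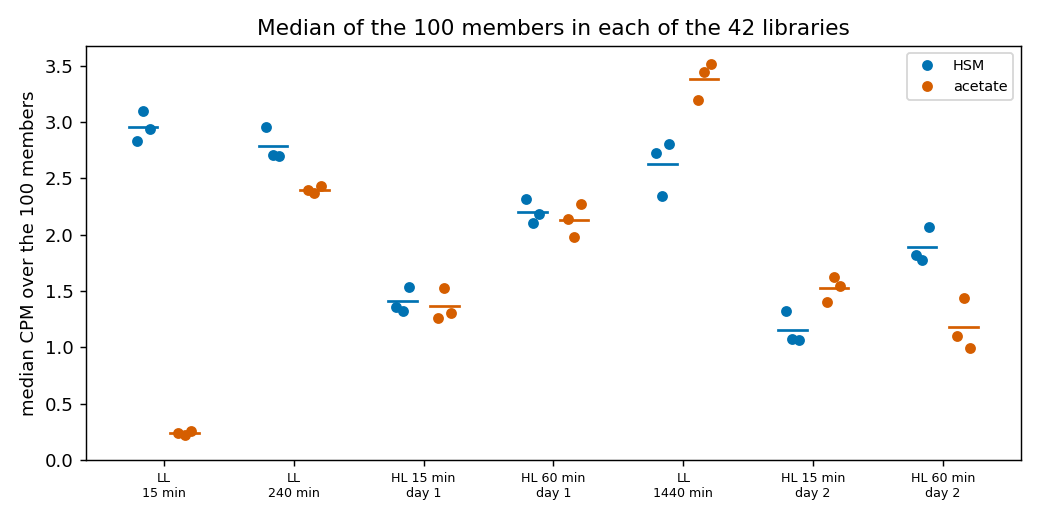
Median CPM over the 100 members (vertical axis, linear) in each of the 42 libraries (points), by light and time (horizontal axis), with HSM in blue, acetate in orange and bars at the mean of 3 libraries. The acetate libraries at 15 min of LL lie at 0.222 to 0.252 CPM, below every other library, and those at 240 min lie at 2.37 to 2.44 CPM.

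The median A(15) of the members was -3.12 on the log2 scale, against -0.12 for all genes tested, and the values ran from -6.45 to -2.62. The median A(240) was -0.08, with values from -3.54 to 1.65, and the median A(1440) was 0.31, with values from -2.07 to 3.66. At 240 min 69 members lay within 0.5 of no difference on the log2 scale, and at 1440 min 61 did. The median member with acetate stood at 8.73% of its HSM level at 15 min, at 92.6% at 240 min and at 122% at 1440 min. The log2 values carry a prior count of 2 and are pulled toward 0 for genes with few reads, and with a prior count of 0.5 the median A(15) was -3.60.

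**Figure D2:**
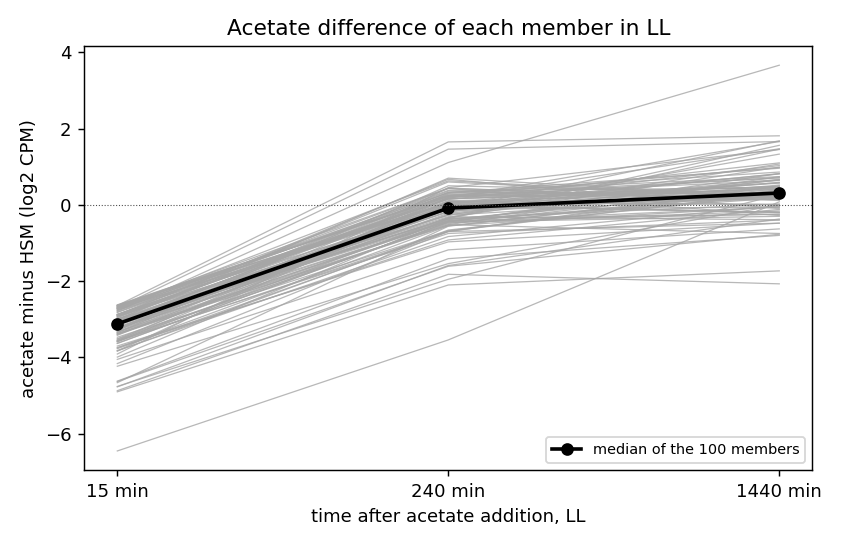
Acetate minus HSM in LL (log2 CPM, vertical axis) for each of the 100 members (grey lines) at 15, 240 and 1440 min after acetate addition (horizontal axis), with the median in black. The median goes from -3.12 to -0.08 and 0.31, and single lines end between -2.07 and 3.66.

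Without acetate the same genes hardly moved. Between 15 and 240 min in HSM the median change was -0.08 on the log2 scale and 99 members stayed within 1, and between 15 and 1440 min it was -0.12 with 93 within 1. With acetate the median rise from 15 to 240 min was 2.95, and the smallest rise of any member was 1.82. From 240 to 1440 min with acetate the median change was 0.43. For 86 of the 100 members acetate at 15 min of LL was the lowest of all 14 conditions, against 12.9% of all genes. The 6 conditions in LL had been used to choose the members, so a low point there follows in part from the rule.

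Counts behind the low point were small. Over the members, the median count was 57.5 in an HSM library at 15 min and 4 in an acetate library. In the acetate libraries 10, 11 and 7 members had no read, and 23 members had at most 3 reads in each of the 3 libraries. For the 93 members with more than 3 reads in these libraries together, HSM was 6.26 to 40.4 times higher than acetate in mean CPM, with a median of 11.

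Cre06.g300650 had the lowest score, -4.1. It held 2.83, 3.57 and 2.70 CPM in the HSM libraries at 15 min and 0, 0.0556 and 0.101 CPM with acetate, which came from 183 and 3 reads in all. The ratio of the pooled levels was 56.3, with a 95% exact binomial interval of 19 to 276 that covers counting error only. At 240 min its levels were 3.95, 3.02 and 4.17 CPM in HSM and 2.48, 1.98 and 3.09 CPM with acetate, and at 1440 min 3.92, 2.25 and 5.1 in HSM and 4.25, 4.77 and 5.56 with acetate. The groups did not overlap at 15 min and overlapped at both later times.

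Of 2 members no read was found in any acetate library at 15 min. Cre03.g148201 held 5.29, 6.97 and 7.98 CPM in HSM at that time and 0 in all 3 acetate libraries, so that HSM was at least 40.9 times higher if 3 reads per library are taken as the limit that a count of 0 allows. Cre07.g342900 held 0.996, 1.25 and 1.23 CPM in HSM, at least 7.03-fold higher than acetate on the same basis. These genes differed in their later course. Cre03.g148201 was still at 0.326, 0.699 and 0.393 CPM with acetate at 240 min, against 5.74, 6.00 and 6.48 in HSM, and reached the HSM range only at 1440 min (3.03, 4.4 and 5.76 CPM against 3.05, 5.41 and 3.95). Cre07.g342900 was at 0.749, 0.544 and 1.13 CPM with acetate and 1.22, 1.02 and 0.834 in HSM at 240 min, and its groups overlapped.

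The rule required a less negative difference at both later times. The number of members still low at 240 min was therefore limited by the selection and is a description. Of the 100 members, 9 had an A(240) of -1 or lower, among them Cre03.g148201 (-3.54), Cre11.g475700 (-2.1) and Cre01.g000150 (-1.82), and 2 were still at -1 or lower at 1440 min, Cre01.g000150 (-2.07) and Cre11.g475700 (-1.73). These genes entered the list because their early drop was deeper still, with an A(15) of -4.90 for Cre11.g475700 and -4.87 for Cre01.g000150. Cre11.g475700 held 5.5, 7.45 and 8.10 CPM in HSM and 0.177, 0.0556 and 0.303 CPM with acetate at 15 min. At 1440 min it held 5.53, 7.76 and 7.07 CPM in HSM and 1.32, 2.36 and 2.47 CPM with acetate, which is higher than at 15 min but without overlap with HSM.

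In the opposite direction, 3 members, Cre09.g393150, Cre09.g391400 and Cre12.g546500, had an A(240) of 1 or more, and 13 had an A(1440) of 1 or more. Cre09.g393150, the member with the highest mean level in HL, held 13.8, 17.3 and 10.8 CPM in HSM and 2.18, 2.34 and 1.92 CPM with acetate at 15 min. At 240 min the order was turned, with 29.3, 19.9 and 24.8 CPM in HSM and 77.4, 62.4 and 93.5 CPM with acetate, and at 1440 min the levels were 85.0, 24.7 and 75 in HSM, the lowest of them in replicate 2, and 180, 195 and 193 with acetate. Cre12.g546500 went from 1.21, 0.732 and 0.998 CPM in HSM and 0, 0.167 and 0.101 with acetate at 15 min to 11, 2.80 and 9.24 in HSM and 81.6, 83.2 and 87.6 with acetate at 1440 min. For these genes the early drop came before a higher level with acetate rather than a return to the HSM level. They made up 25.4% and 11% of the summed member level with acetate at 1440 min, where the members' sum was highest in LL.

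Among the 12 lowest scores, 11 genes besides Cre06.g300650 followed the same course with small counts. Their A(15) ran from -4.16 for Cre19.g750747 to -3.29 for Cre16.g680678, with Cre07.g342900 at -3.99, Cre11.g467850 at -3.91, Cre12.g533950 at -3.83, Cre12.g551050 at -3.59, Cre35.g759447 at -3.58, Cre16.g667700 at -3.55, Cre02.g081000 at -3.51, Cre13.g591100 at -3.42 and Cre08.g382150 at -3.34. Their A(240) lay between -0.70 and 0.50. The lowest belonged to Cre19.g750747, which still held 1.17, 1.28 and 1.55 CPM with acetate against 2.44, 1.91 and 2.3 CPM in HSM at 240 min, without overlap. At 1440 min Cre12.g533950 (1.66), Cre07.g342900 (1.46) and Cre11.g467850 (1.45) stood above HSM, and Cre13.g591100 (0.01) did not.

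The 3 genes listed as transcription factors or chromatin regulators were also low at 15 min, and they differed at 240 min. The SET gene Cre03.g164650 held 1.73, 2.24 and 2.47 CPM in HSM and 0.294, 0.0556 and 0.151 CPM with acetate at 15 min, and its A(240) was -0.22. The AP2 gene Cre03.g144424 held 1.57, 2.07 and 1.59 CPM in HSM and 0.236, 0.111 and 0.151 with acetate, and the C3H gene Cre01.g008200 1.41, 1.51 and 1.7 in HSM and 0, 0.111 and 0.101 with acetate. The A(240) of these was 0.16 and -0.75. At 240 min the C3H gene still held 0.717, 0.544 and 0.76 CPM with acetate against 1.1, 1.29 and 1.15 CPM in HSM, without overlap. At 1440 min its groups overlapped.

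The last genes taken were Cre13.g605850, Cre03.g144064 and Cre12.g497800, with scores of -2.634, -2.626 and -2.622. The next, not taken, were Cre01.g050350, Cre01.g040379 and Cre07.g347800, with scores of -2.621, -2.620 and -2.614. The threshold thus runs through a continuum. An A(15) of -2.62 or lower was found for 536 genes, and the requirement of recovery reduced these to the 100 described.

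The members shared features that the score did not use, although the filter counted all 42 libraries. Over the 24 HL libraries, which the score does not contain, their median level was 1.84 CPM, compared with 7.64 CPM for all genes tested, and 95 of the 100 lay below the median gene. Per kilobase of gene span in the RefSeq annotation the medians were 0.322 and 1.56 CPM, and 93 members lay below the median gene. Their median gene span was 5780.5 bases, against 4652 for all genes. The span of a gene includes introns and is not the length of its mRNA.

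The early acetate difference was graded with level across all genes. For the 990 genes under 1 CPM in HL the median A(15) was -1.20, for the 2928 genes at 2 to 5 CPM it was -0.48, and for the 1886 genes at 20 to 50 CPM it was 0.44. Of the members, 23 were under 1 CPM, 35 at 1 to 2, 25 at 2 to 5 and 13 at 5 to 10 CPM, and 4 were above 10 CPM. The share of members fell from 2.32% of genes under 1 CPM and 2.35% of genes at 1 to 2 CPM to 0.525% at 5 to 10 CPM. At 240 min the median difference of the lowest group was -0.36 and at 1440 min 0.16. Whether the grading with level had a part in the members' low values was not tested.

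**Figure D3:**
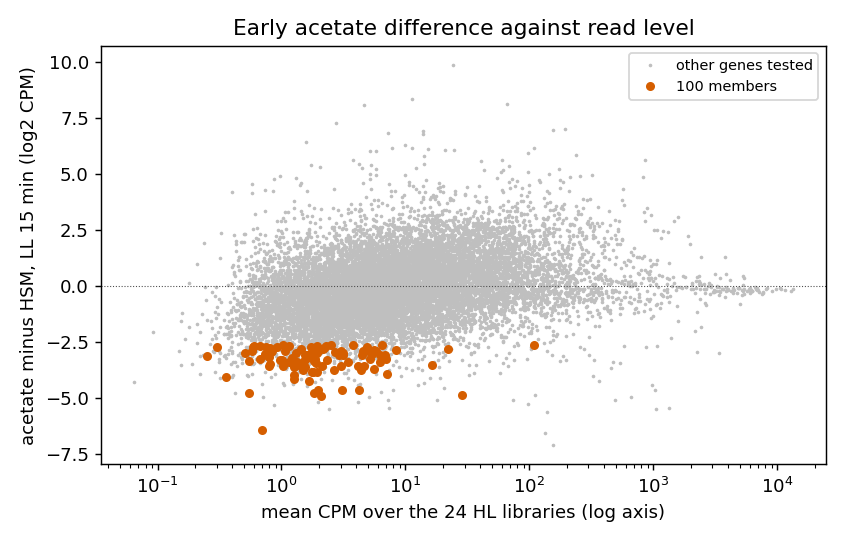
Acetate minus HSM after 15 min of LL (log2 CPM, vertical axis) against the mean CPM over the 24 HL libraries (horizontal axis, log scale) for the genes tested (grey) and the 100 members (orange). The members lie at A(15) values of -2.62 or lower and mostly under 10 CPM, and the cloud of all genes lies lower on the left than on the right.

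Members were spread over 16 chromosomes with at most 12 on any of them, and 3 lay on unplaced sequence. Only 5 pairs of members were within 5 genes of each other, of which 2 pairs were direct neighbours, Cre14.g626634 with Cre14.g626667 and Cre09.g391370 with Cre09.g391400. The other pairs were Cre06.g285001 with Cre06.g285200, Cre10.g432301 with Cre10.g432400 and Cre01.g000150 with Cre01.g000400, and the pairs are named after their positions were seen. The neighbours Cre09.g391370 and Cre09.g391400 moved in opposite directions in HL. Cre09.g391370 held 3.61, 4.34 and 5.06 CPM after 15 min of HL in HSM on day 1 and 13, 14.0 and 12.5 CPM after 60 min, while Cre09.g391400 held 9.76, 11.7 and 8.98 and then 0.849, 0.752 and 0.471 CPM. In the edgeR fit the first rose by 1.61 ± 0.17 on the log2 scale (SE, adjusted p = 2.39e-10) and the second fell by 3.89 ± 0.41 (adjusted p = 3.97e-10).

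The 24 HL libraries were not used in the score, and the comparisons among them were tested with the quasi-likelihood test of edgeR over all 13886 genes, with Benjamini-Hochberg adjustment and a threshold of 0.05. The first question was whether acetate made a difference to the members in HL. Calls of both directions were frequent among all genes, and genes with few reads are harder to call. For this reason the share of calls is given for all genes and also for those under 5 CPM in HL, to which 83 of the members belong.

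On day 1 34 members passed the test after 15 min of HL and 35 after 60 min. After 15 min of HL 11 members were higher with acetate and 23 lower, while 33.8% of all genes were higher and 31.6% lower. After 60 min 15 were higher and 20 lower, against 22.9% and 27.2% of all genes. The median member differed by -0.13 at 15 min and by -0.04 at 60 min on the log2 scale, and the median gene by 0.04 and -0.09. All 4 counts were below the share of all genes. Under 5 CPM, 9.64% of the members and 28.6% of all genes were higher at 15 min and 20.5% and 28.5% lower, and at 60 min 13% and 15.1% were higher and 21.7% and 26.7% lower. With library size as the only scaling, 38 were higher and 4 lower at 15 min, where the median of all genes also moved to 0.70, and 15 higher and 6 lower at 60 min. Under that scaling 54.6% of all genes were higher and 12.5% lower at 15 min, and 23.8% and 12.7% at 60 min.

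The counts at 15 min on day 1 rested partly on single libraries. Without HSM HL 255 min replicate 1, which had the lowest TMM factor of its condition, 5 members were higher, and without acetate replicate 3 the count was 7. Without acetate replicate 1 the count of lower members was 15.

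The largest day 1 differences included genes whose LL difference had outlasted 15 min. Cre11.g475700 held 1.12, 1.7 and 2.87 CPM in HSM and 0.577, 0.353 and 0.421 CPM with acetate after 15 min of HL, a difference of -2.1 ± 0.34 (SE, adjusted p = 2.31e-06). Cre03.g148201 was low in both media, with 0.118, 0.165 and 0.404 CPM in HSM and 0, 0.0588 and 0.0281 CPM with acetate, and differed by -2.87 ± 0.85 (adjusted p = 0.00354). Without HSM replicate 3 the latter difference was -2.19 and did not pass (adjusted p = 0.0671). Cre09.g391370 was lower with acetate, at 1.1, 1.5 and 1.32 CPM against 3.61, 4.34 and 5.06 CPM (log2 difference -1.74 ± 0.19, adjusted p = 7.62e-10).

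Higher with acetate after 15 min on day 1 were Cre12.g546500 (log2 difference 2.00 ± 0.42, adjusted p = 8.9e-05), Cre09.g393150 (1.61 ± 0.26, adjusted p = 1.93e-06) and Cre10.g419350 (1.55 ± 0.27, adjusted p = 4.74e-06). Cre09.g393150 held 39.2, 25 and 21.6 CPM in HSM and 80.0, 93.4 and 87.5 CPM with acetate. Cre10.g419350 held 0.828, 0.621 and 0.930 CPM in HSM and 2.11, 2.53 and 2.33 CPM with acetate, without overlap. The first and the second of these were also above HSM in LL at 240 min.

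After 60 min on day 1 Cre09.g393150 (2.54 ± 0.27, adjusted p = 1.31e-09), Cre16.g686286 (2.01 ± 0.39, adjusted p = 6.35e-05) and Cre13.g581000 (1.31 ± 0.28, adjusted p = 0.000176) differed most upward. Cre16.g686286 held 0.389, 0.188 and 0.377 CPM in HSM and 1.19, 1.12 and 1.59 with acetate. Cre01.g031951 (-1.94 ± 0.30, adjusted p = 1.55e-06), Cre06.g268550 (-1.92 ± 0.41, adjusted p = 0.000182) and Cre03.g148201 (-1.63 ± 0.31, adjusted p = 5.48e-05) differed most downward. Cre01.g031951 held 2.58, 2.14 and 3.27 CPM in HSM and 0.567, 0.919 and 0.603 CPM with acetate.

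On day 2 the acetate effect depended on how long the cells had been in HL, for many members and for many genes of any kind. After 15 min 34 members were higher with acetate and 14 lower, while 37.8% and 33.1% of all genes were, and the median member differed by 0.37 against 0.14 for the median gene. After 60 min 16 were higher and 48 lower, while 36.0% and 38.0% of all genes were, and the median member differed by -0.59 against -0.05. Among the 83 members under 5 CPM, 32.5% were higher at 15 min and 12.0% lower, beside 34.3% and 25.1% of all genes at that level. Of the same 83 members, 50.6% were lower at 60 min and 15.7% higher, beside 45.1% and 21.9% of all genes at that level. Measured against genes of like level, the count of lower members at 60 min was thus near the background. With library size as the only scaling 60 members were higher and 3 lower at 15 min, and 10 higher and 56 lower at 60 min, where 57.3% and 17.2% of all genes were higher and lower at 15 min and 23.9% and 46.8% at 60 min.

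The count of lower members after 15 min on day 2 was 8 without HSM HL 1455 min replicate 1 and 9 without acetate replicate 3. The 3 HSM libraries at 1455 min had TMM factors of 0.548 to 0.711, the lowest of any HL condition, and the acetate libraries of 0.914 to 1.12.

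The difference between the acetate effects at 15 and 60 min was tested directly. On day 2 it was positive for 50 members, where acetate was thus more positive after 15 than after 60 min, and negative for 9, while it was positive for 29.0% of all genes and negative for 30.9%. Under 5 CPM it was positive for 51.8% of the members and 37.7% of all genes, and negative for 4.82% and 13.1%. The median member had a difference of 1.09 and the median gene of 0.01. On day 1 it was positive for 2 members and negative for 14, against 17.6% and 13.9% of all genes, and the medians were -0.03 and 0.05.

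Of the 50 members on day 2, 38 (76.0%) had risen between 15 and 60 min in HSM, 19 (38.0%) had fallen with acetate, and 7 (14.0%) had done both. Of the 4032 genes of any kind with a positive difference on day 2, the shares were 73.4%, 41.2% and 16.1%, so the members were near the background in all 3. In these 50, 23 (46.0%) were higher with acetate at 15 min and 36 (72%) lower with acetate at 60 min, beside 54.8% and 63.1% of the 4032 genes. With library size alone the counts of positive and negative differences were 73 and 3 on day 2, where 60.0% and 6.98% of all genes had them, and 6 and 2 on day 1, against 28.5% and 4.16%. Among the 50, Cre16.g653800 had a positive difference on day 1 also and Cre19.g750097 a negative one, both named after their values were seen.

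**Figure D4:**
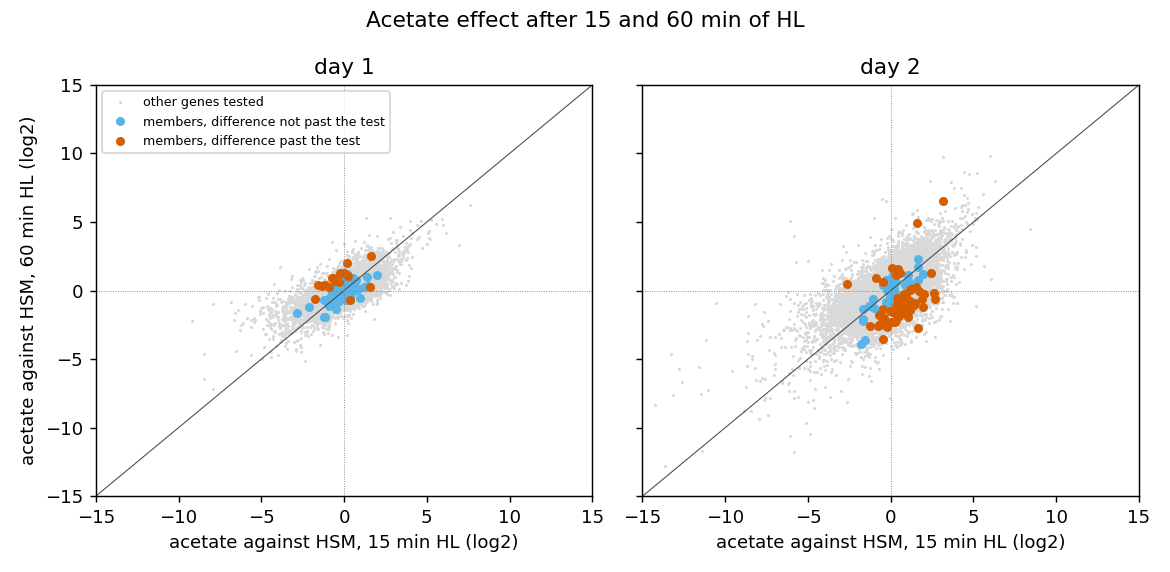
Log2 fold change of acetate against HSM after 15 min (horizontal axis) and after 60 min of HL (vertical axis) on day 1 (left) and day 2 (right) for the genes tested (grey) and the members, in orange where the difference between the effects passed the test and in blue where it did not. The diagonal marks equal effects, and on day 2 50 members lie significantly below it and 9 above, compared with 2 and 14 on day 1.

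Cre03.g144064 showed this pattern most strongly. After 15 min on day 2 it held 0.922, 1.07 and 0.993 CPM in HSM and 3.63, 3.17 and 2.66 CPM with acetate. After 60 min it held 2.13, 2.1 and 2.22 CPM in HSM and 0.586, 0.206 and 0.132 CPM with acetate, so the order of the media was turned and neither time showed overlap. The acetate effect was 1.67 ± 0.25 at 15 min (adjusted p = 4.13e-07) and -2.73 ± 0.29 at 60 min (adjusted p = 1.38e-10), and these differed by 4.4 ± 0.38 (adjusted p = 8.58e-12). On day 1 the same gene had rising levels in both media, from 2.13, 1.45 and 1.33 to 4.53, 4.47 and 4.52 CPM in HSM and from 2.14, 1.88 and 1.71 to 4.46, 6.25 and 5.58 CPM with acetate, and its effects differed by -0.02 ± 0.30 (adjusted p = 0.997).

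Other members fell with acetate between 15 and 60 min on day 2 and did not pass the test in HSM, or rose there. Cre08.g358537 went from 1.06, 1.68 and 1.12 CPM to 0.147, 0.124 and 0.0441 CPM with acetate, a change of -3.52 ± 0.49 (adjusted p = 1.18e-07), while HSM stood at 1.47, 1.65 and 2.13 and then 1.47, 1.25 and 1.22 CPM (-0.40 ± 0.33, adjusted p = 0.269). Cre06.g300650, the gene with the lowest score, went from 2.47, 1.6 and 1.81 CPM to 0.293, 0.494 and 0.176 CPM with acetate (-2.59 ± 0.37, adjusted p = 1.43e-07) and from 2.21, 0.787 and 1.77 to 1.66, 1.36 and 1.74 CPM in HSM (-0.02 ± 0.31, adjusted p = 0.963). The SET gene Cre03.g164650 went from 1.32, 0.939 and 2.06 to 0.330, 0.782 and 0.221 CPM with acetate (-1.67 ± 0.37, adjusted p = 0.000171), and in HSM from 0.430, 0.429 and 0.213 to 0.973, 0.896 and 1.26 CPM (1.52 ± 0.44, adjusted p = 0.00263). With acetate after 60 min all 3 libraries of Cre08.g358537 lay below their range of 0.222 to 0.404 CPM after 15 min of acetate in LL, and those of Cre06.g300650 lay above theirs.

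Cre11.g476500 had the most negative acetate difference after 60 min on day 2. It held 3.2, 3.27 and 3.96 CPM in HSM and 0.256, 0.247 and 0.176 CPM with acetate (-3.90 ± 0.42, adjusted p = 3.16e-10). Here the HSM libraries had risen from 0.553, 0.286 and 0.0710 CPM at 15 min, whereas the acetate libraries had been at 0.0660, 0.117 and 0.0860 CPM. The change between 15 and 60 min was 3.45 ± 0.45 in HSM (adjusted p = 2.22e-08) and 1.32 ± 0.74 with acetate (adjusted p = 0.118). Cre06.g268550 (-3.58 ± 0.64, adjusted p = 5.4e-06) was likewise low with acetate, at 0.0733, 0.0412 and 0.0441 CPM against 1.13, 0.701 and 0.222 CPM.

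Some members went the other way. After 60 min on day 2 Cre12.g546500 held 0.973, 1.21 and 1.4 CPM in HSM and 117, 106 and 108 CPM with acetate, a difference of 6.53 ± 0.41 (adjusted p = 2.16e-16). Cre09.g393150 held 13.5, 12.5 and 16.7 CPM in HSM and 438, 437 and 448 CPM with acetate (4.95 ± 0.30, adjusted p = 7.1e-17), and this gene alone made up 58.7% of the summed member level in that condition. Cre03.g200991 held 0.878, 0.584 and 1.18 CPM in HSM and 4.21, 5.31 and 4.01 CPM with acetate (2.34 ± 0.29, adjusted p = 4.86e-09). In all 4 HL comparisons 4 members were higher with acetate, Cre09.g393150, Cre12.g546500, Cre35.g759447 and Cre02.g078650, and 5 lower, Cre16.g676500, Cre11.g476500, Cre11.g475700, Cre04.g220000 and Cre09.g391370, against 12% and 11% of all genes. Another 11 members passed in none of the 4, against 4.14% of all genes. Cre02.g078650, Cre16.g676500 and Cre04.g220000 are named after their values were seen.

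After 15 min on day 2 the members that differed most upward were Cre12.g546500 (3.19 ± 0.35, adjusted p = 5.63e-10), Cre07.g342900 (2.65 ± 0.50, adjusted p = 1.8e-05) and Cre02.g088050 (2.64 ± 0.71, adjusted p = 0.00124). Cre07.g342900 held 0, 0.0716 and 0.497 CPM in HSM and 1.09, 1.25 and 1.16 CPM with acetate, and without HSM HL 1455 min replicate 3, the highest of its 3 HSM libraries, its difference was 4.98. Those that differed most downward were Cre01.g000150 (-2.62 ± 0.28, adjusted p = 2.92e-10), Cre10.g449020 (-1.7 ± 0.50, adjusted p = 0.00319) and Cre12.g497800 (-1.67 ± 0.38, adjusted p = 0.000172). Cre10.g449020 did not pass with library size as the only scaling (-0.99, adjusted p = 0.0795).

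Cre01.g000150 had high levels after 15 min of HL. In HSM on day 1 it held 79.7, 75.8 and 47.0 CPM after 15 min and 9.45, 6.69 and 3.96 CPM after 60 min, against 6.76, 4.93 and 4.25 CPM in LL at 240 min. On day 2 it held 97.3, 56.7 and 64.4 CPM and then 9.19, 9.85 and 11 CPM in HSM, but 15.5, 9.24 and 10.6 CPM and then 13, 16.1 and 12.7 CPM with acetate. The change between 15 and 60 min in HSM was -3.34 ± 0.29 on day 1 (adjusted p = 6.89e-12) and -2.85 ± 0.29 on day 2 (adjusted p = 7.63e-11). With acetate the change was -2.67 ± 0.28 on day 1 (adjusted p = 7.12e-10) and 0.24 ± 0.28 on day 2 (adjusted p = 0.458).

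The second question was how the members changed during HL itself. On day 1 they rose more often than they fell in both media. In HSM 48 rose and 20 fell between 15 and 60 min, while 34.3% of all genes rose and 30.7% fell, and with acetate 52 rose and 16 fell, while 29.9% and 31.3% did. The median member rose by 0.55 in HSM and by 0.67 with acetate, and the median gene changed by 0.05 and -0.02. Among genes under 5 CPM 45.2% rose in HSM and 39.7% with acetate, and of the members at that level 49.4% and 54.2%. The share in HSM was therefore close to that of all weakly read genes.

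On day 2 the media differed. In HSM 51 members rose and 28 fell, against 38.5% and 33.8% of all genes, with a median of 0.62 against 0.10. With acetate 16 rose and 38 fell, against 36.1% and 26.9% of all genes, with a median of -0.42 against 0.14. Under 5 CPM 53.0% of the members and 49.9% of all genes rose in HSM, whereas with acetate 37.3% of the members and 22.1% of all genes fell. With library size as the only scaling 64 rose and 11 fell in HSM on day 2, 9 rose and 36 fell with acetate, and 63 rose and 11 fell in HSM on day 1. The shares of all genes were then 67.4% and 9.07% in HSM on day 2, 27.2% and 25.5% with acetate on day 2, and 56.9% and 10% in HSM on day 1.

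Most members that changed in HSM on day 1 changed in the same direction on day 2, as did most of all genes. Of the 48 that rose on day 1, 43 also rose on day 2 (89.6% of the day 1 list and 84.3% of the 51 of day 2), and of the 20 that fell 18 fell again (90.0% and 64.3% of the 28). For all genes the shares were 87.4% and 77.8% for rises and 88.6% and 80.4% for falls. With acetate 12 of the 52 that rose on day 1 rose on day 2 (23.1%, and 75% of the 16 of day 2) and 13 of them fell (25%, and 34.2% of the 38 of day 2). Of all genes that rose with acetate on day 1, 48.2% rose on day 2 and 14.9% fell, which were 39.9% and 16.5% of the day 2 lists. The HL libraries of the 2 days are distinct samples.

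In both media and on both days 11 members fell between 15 and 60 min and 11 rose, compared with 10.0% and 9.79% of all genes. Among those that fell was Cre10.g459600, which held 7.4, 9.35 and 7.89 CPM after 15 min and 1.59, 1.95 and 2.07 CPM after 60 min in HSM on day 1, and 11.5, 12.6 and 16.6 and then 2.14, 1.05 and 2.64 CPM with acetate. Its change was -2.13 ± 0.33 in HSM (adjusted p = 7.85e-07) and -2.78 ± 0.31 with acetate (adjusted p = 1.65e-09). In LL at 240 min the same gene was at 25.7, 14.7 and 14.7 CPM in HSM and at 14.0, 19.6 and 23.2 CPM with acetate. Its levels after 15 min of HL lay below these in HSM and overlapped with them with acetate, and this difference was not tested. The AP2 gene Cre03.g144424 belonged to this group and went from 2.66, 2.94 and 2.02 to 0.849, 0.526 and 0.628 CPM in HSM on day 1 (-1.92 ± 0.33, adjusted p = 4.66e-06).

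Cre02.g141005 and Cre14.g616100 fell most in HSM on day 2 among the members whose groups did not overlap. The former went from 11, 12.0 and 19.7 to 1.22, 0.974 and 1.4 CPM (-3.56 ± 0.33, adjusted p = 1.17e-11) and the latter from 19.9, 13.9 and 14 to 1.76, 1.29 and 2.26 CPM (-3.18 ± 0.34, adjusted p = 3.12e-10). Both also fell with acetate on that day, with changes of -2.47 ± 0.31 (adjusted p = 1.69e-08) and -2.91 ± 0.32 (adjusted p = 1.07e-09). Cre09.g391400 fell by 3.04 ± 0.36 with acetate on day 1 (adjusted p = 5.94e-09).

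Among the 11 that rose throughout were Cre11.g467850 and Cre16.g667700, both of the 12 lowest scores, and Cre10.g432301. Cre11.g467850 rose from between 4.01 and 6.31 CPM to between 9.1 and 12.8 CPM in HSM on day 1 (1.03 ± 0.29, adjusted p = 0.00246). Cre10.g432301 rose from 0.355, 0.538 and 0.849 to 3.79, 4.1 and 4.99 CPM (2.83 ± 0.28, adjusted p = 1.35e-10). In LL at 240 min this gene held 3.99, 5.38 and 5.24 CPM in HSM, and after 60 min of HL it came back to about that level. With acetate it held 4.53, 4.74 and 3.64 CPM in LL at 240 min. After 60 min of HL with acetate on day 1 it held 2.4, 2.88 and 3.44 CPM, below its LL range, and this difference was not tested.

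The strongest rises were from very low levels. Cre03.g148201 rose from 0.118, 0.165 and 0.404 to 2.16, 2.67 and 2.92 CPM in HSM (3.4 ± 0.42, adjusted p = 2.15e-08) and from 0, 0.0588 and 0.0281 to 0.825, 0.587 and 1.05 CPM with acetate on day 1 (4.63 ± 0.62, adjusted p = 9.26e-08). Cre07.g342900 rose from 0, 0.0716 and 0.497 to 1.85, 2.06 and 2.59 CPM (3.54 ± 0.46, adjusted p = 3.51e-08) and Cre08.g358650 from 0.0614, 0 and 0.213 to 1.1, 0.896 and 1.26 CPM (3.52 ± 0.61, adjusted p = 4.46e-06) in HSM on day 2. Without HSM HL 1455 min replicate 3 the change of Cre07.g342900 was 5.76. With acetate on day 2, Cre10.g419350 rose from 0.858, 1.37 and 1.55 to 7.14, 7.95 and 6.31 CPM, by 2.52 ± 0.23 (adjusted p = 1.39e-11) and Cre09.g391370 by 2.3 ± 0.24 (adjusted p = 1.77e-10), and on day 1 the latter rose by 2.75 ± 0.18 (adjusted p = 1.43e-14).

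**Figure D5:**
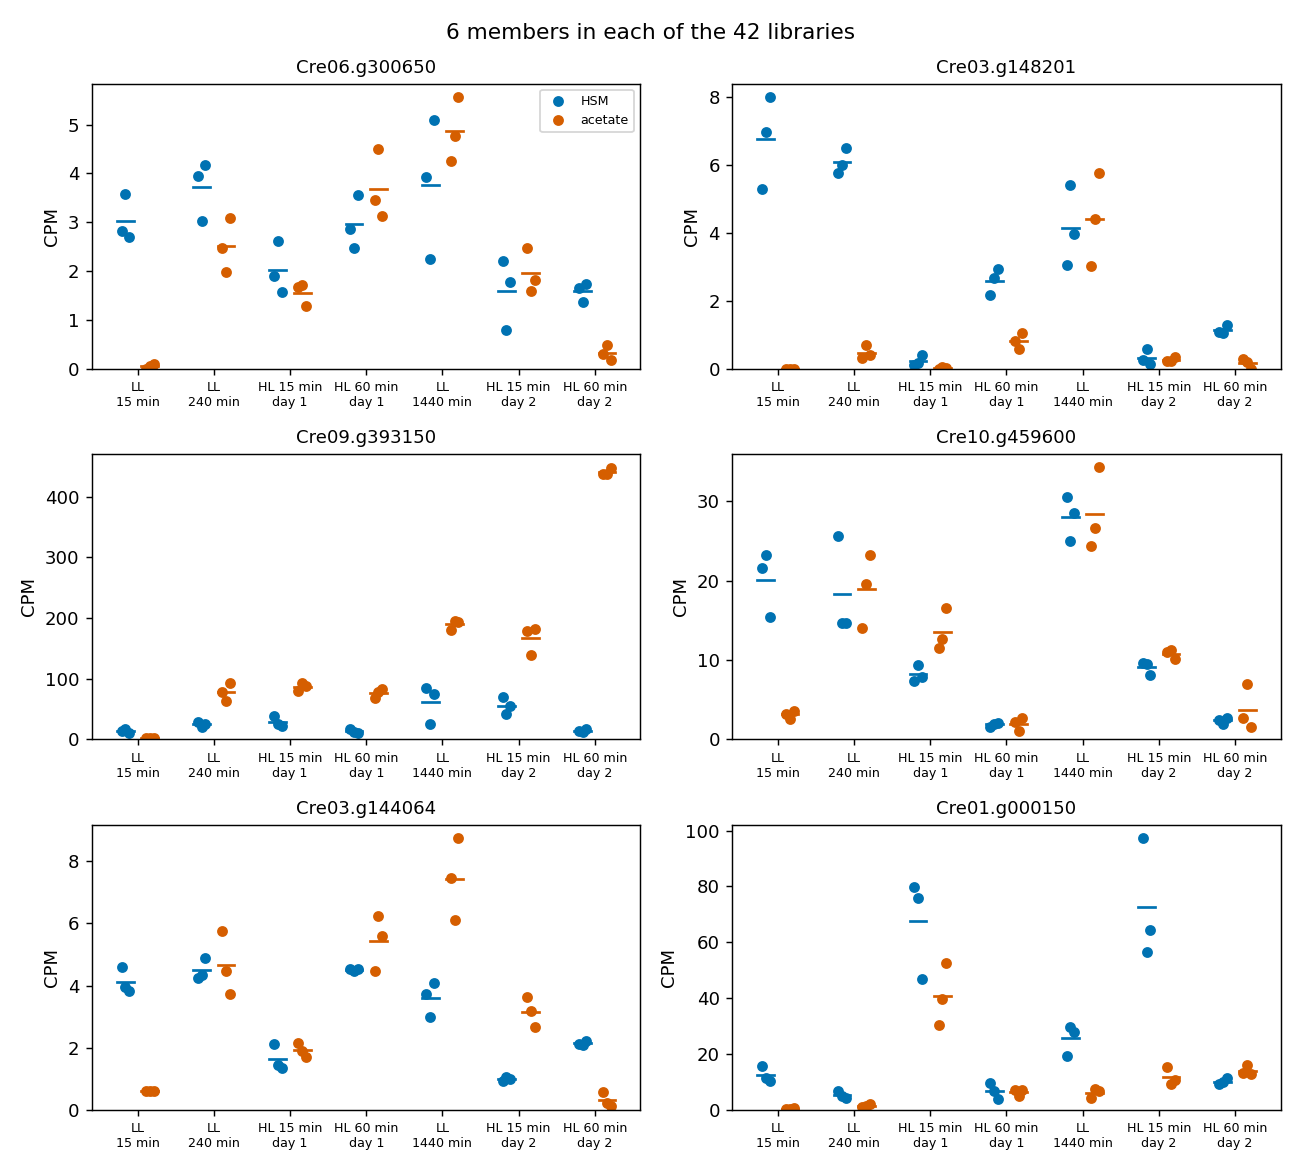
CPM (vertical axes, linear, different ranges) of 6 members in each of the 42 libraries by light and time (horizontal axes), with HSM in blue, acetate in orange and bars at the mean of 3 libraries. All 6 are near 0 or at their LL minimum with acetate at 15 min, and their HL courses differ. With acetate after 60 min on day 2 the highest point lies at 448 CPM for Cre09.g393150 and the lowest at 0 CPM for Cre03.g148201.

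Against LL the members were mostly lower in HL. Because the LL libraries chose the members, these values are a description. The filter counted all 42 libraries, so a gene could pass it through LL libraries alone. Cre12.g548450, named after its values were seen, passed in that way and held at most 0.572 CPM in any HL library. A lower level in HL thus follows in part from the selection, also beside the shares of all genes. After 15 min of HL the median member differed from LL of the same medium and day by -0.81 on the log2 scale in HSM on day 1, and the other medians were -1.19 in HSM on day 2, -0.62 with acetate on day 1 and -1.08 with acetate on day 2. After 60 min the medians were -0.24 and -0.72 in HSM and -0.02 and -1.48 with acetate. The median of all genes stayed between -0.13 and 0.12 in these comparisons. After 60 min with acetate on day 2, 64 members were at -1 or lower, against 23.6% of all genes. No other HL condition stood further below its LL level, and its median member levels of 1.1, 1.44 and 0.993 CPM were still above those after 15 min of acetate in LL.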

How the data were processed

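RNA-seq reads were trimmed by the authors with BBduk, aligned with STAR 2.5.3 to version 5 of the Phytozome assembly and counted per gene with HTSeq-count, and the deposited values are these raw counts. A gene was tested if 9 or more of the 42 libraries reached 1 CPM (counts per 1000000), which left 13886, and log2 CPM used TMM factors and a prior count of 2. HL comparisons were tested with edgeR 4.0.16 (quasi-likelihood, 1 model over all 42 libraries, R 4.3.3), with Benjamini-Hochberg adjustment over all genes and a threshold of 0.05. Values with ± beside a test are SE.

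The 100 members and the gene lists were chosen with earlier results of these data known. Genes named are the 12 lowest scores, members of a gene list, the 3 largest non-overlapping differences per direction with acetate in HL (2 for each 60 against 15 min comparison) and those at the threshold, with exceptions marked. Alternatives were RLE (DESeq2 1.42.0 was also run), library size, other filters and priors, limma 3.58.1 voom, blocks and leaving out each library. The code was tested on simulated data. Gene spans and neighbours came from RefSeq annotation 5.5, in which all 100 members were matched, without names or sequences, so promoters and other functional lists were not analysed here.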

Additional observations from a re-analysis of the deposited data

Results flagged for a closer look

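On day 2 the acetate effect in HL differed between 15 and 60 min for many members, by a test of the difference itself (edgeR, effect after 15 min minus effect after 60 min). Calls in either direction were about as frequent among all genes on that day, and the members stood apart in the balance of directions only. The difference was positive for 50 members and negative for 9 on day 2, against 29.0% and 30.9% of all genes. On day 1 it was positive for 2 and negative for 14, against 17.6% and 13.9%. Under 5 CPM in HL, it was positive on day 2 for 51.8% of the members and 37.7% of all genes.

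The genes that follow are those that the rule for named genes gave, without regard to this difference. Positive values on day 2 were found for Cre03.g144064 (4.4, adjusted p = 8.58e-12), Cre07.g342900 (3.23, adjusted p = 1.89e-05), Cre03.g164650 (3.19, adjusted p = 1.3e-05), Cre08.g358537 (3.12, adjusted p = 4.79e-05), Cre16.g680678 (2.98, adjusted p = 0.000175), Cre02.g088050 (2.84, adjusted p = 0.00507), Cre06.g300650 (2.58, adjusted p = 2.62e-05), Cre19.g750747 (2.49, adjusted p = 0.000212) and Cre08.g358650 (2.47, adjusted p = 0.0101). Smaller positive values were found for Cre03.g148201 (2.43, adjusted p = 0.00902), Cre01.g008200 (2.38, adjusted p = 0.00328), Cre01.g031951 (1.85, adjusted p = 0.00279), Cre12.g533950 (1.76, adjusted p = 0.0026), Cre10.g432301 (1.68, adjusted p = 0.00509), Cre13.g605850 (1.48, adjusted p = 0.000366), Cre35.g759447 (1.15, adjusted p = 0.00801) and Cre11.g467850 (1.1, adjusted p = 0.0391). The acetate effect of Cre08.g358537 went from -0.44 to -3.56, and that of Cre07.g342900 from 2.65 to -0.58.

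Negative values on day 2 were found for Cre09.g393150 (-3.38, adjusted p = 1.4e-09), Cre12.g546500 (-3.34, adjusted p = 1.21e-06), Cre01.g000150 (-3.09, adjusted p = 3.08e-08), Cre13.g581000 (-1.85, adjusted p = 0.00162), Cre16.g686286 (-1.56, adjusted p = 0.0055), Cre13.g591100 (-1.11, adjusted p = 0.00312), Cre02.g141005 (-1.09, adjusted p = 0.0384) and Cre02.g081000 (-0.84, adjusted p = 0.0135). The ninth was Cre01.g000400 (-0.74, adjusted p = 0.0314), which the rule did not name. For Cre01.g000150 the effect went from -2.62 to 0.46, and for the first and the second a positive effect became larger.

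On day 1 the difference was positive for Cre10.g419350 (1.29, adjusted p = 0.00339) and negative for Cre16.g686286 (-1.82, adjusted p = 0.00496), Cre02.g141005 (-1.68, adjusted p = 0.00507), Cre14.g616100 (-1.61, adjusted p = 0.00494), Cre13.g581000 (-1.34, adjusted p = 0.0108), Cre09.g391370 (-1.14, adjusted p = 0.000469), Cre12.g551050 (-0.95, adjusted p = 0.0181), Cre09.g393150 (-0.93, adjusted p = 0.0476) and Cre02.g081000 (-0.75, adjusted p = 0.0477). Outside the rule, the values were 1.05 for Cre16.g653800 (adjusted p = 0.0416) and -1.24 for Cre19.g750097 (adjusted p = 0.0133).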

How the results depend on the processing

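The 40 results for named genes in HL had been picked as the largest differences past the threshold without overlap, so their calls were likely to hold. The differences between acetate effects were not among them. Of these 40 results, none reversed in 560 values under other settings, and 558 values gave the same call. The exceptions were Cre03.g148201 after 15 min of HL on day 1 without HSM replicate 3 (-2.19, adjusted p = 0.0671, edgeR) and Cre10.g449020 after 15 min on day 2 with library size as the only scaling (-0.99, adjusted p = 0.0795). Of the 20 counts of members, 20 stayed within 1.5 times under limma-voom, without the filter and with the HL libraries alone.

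Library size as the only scaling changed most counts. For acetate against HSM on day 1 it gave 38 higher and 4 lower after 15 min and 6 lower after 60 min, and on day 2 60 higher and 3 lower after 15 min and 10 higher after 60 min. Between 15 and 60 min it gave 11 lower in HSM on day 1, 11 lower in HSM on day 2 and 9 higher with acetate on day 2, and for the difference between acetate effects 6 higher and 2 lower on day 1 and 3 lower on day 2. The medians of the members became 0.51 and 0.17 on day 1 and 1.08 and -0.99 on day 2 for acetate, and 1.17 in HSM and 0.83 with acetate on day 1 and 1.53 in HSM on day 2 for the change between 15 and 60 min. The median of all genes moved with them, to 0.70 and 0.11 on day 1 and 0.85 and -0.47 on day 2 for acetate and to 0.71, 0.19 and 1.12, because this setting leaves out the composition of the libraries.

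DESeq2 called 7 members higher with acetate after 15 min on day 1. A positive difference between acetate effects on day 1 was called for 1 member by DESeq2, 1 under RLE scaling and 1 with a block for the culture number. With a minimum log2 fold change of 1, the counts were 6 higher and 9 lower after 15 min and 8 higher and 7 lower after 60 min for acetate on day 1, and 9 higher with acetate between 15 and 60 min on day 2. With a prior count of 0.5 the median A(15) was -3.60.

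Leaving out 1 library gave 5 to 11 higher and 15 to 29 lower after 15 min on day 1, 8 to 13 lower after 15 min on day 2, and 1 to 3 positive differences between acetate effects on day 1. The list of members itself kept 72 to 99 of 100 genes when 1 LL library was left out (72 without acetate 15 min replicate 3), 99 under RLE, 72 with library size only, 80 and 78 with prior counts of 0.5 and 5, 86 with the filter at 18 libraries and 73 with medians in place of means.

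Correlations of deviations with the same replicate number ran from -0.16 to 0.34, and in 0 of 8 comparisons were all over 0.1. With 3 libraries per condition this cannot exclude a pairing of the samples, and the main model used none. With a replicate block 20 of 20 counts stayed within 1.5 times, for example 50 positive and 9 negative differences between acetate effects on day 2. In LL the depth of acetate levels at 15 min was limited by counts, with a median of 4 reads per member and library.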
